A study of Mus musculus with 2 samples.

Results

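Of the 5046 autosomal 10 kb windows that were methylated in XO mouse embryonic stem cells (mESCs), 1498 also had a mean of 50% or more in XX cells, and these kept windows are described here. Windows were chosen by their measured values. A window started at a multiple of 10000 bp, held at least 10 listed cytosines, and had a mean methylation of 60% or more in XO and of 50% or more in XX. In all, 36069 autosomal windows held 10 or more listed cytosines, so that 4.15% of them, and 29.7% of the XO-methylated windows, were kept. These shares follow from the thresholds, and nothing was read from them. The other 3548 XO-methylated windows, with an XX mean under 50%, are called not kept and served as the comparison.

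The cells were female Xmas mESCs of strain C57/Bl6, which carry a different fluorescent reporter allele on each X chromosome. They were grown in 2i/LIF by the modified culture method, for 7 passages according to the sample labels (the methods of the study give a larger number), and FACS of the reporters separated XX cells from XO cells that had lost an X chromosome. Both karyotypes were thus sorted from cultured Xmas mESCs. The methods of the study do not state whether these were a single line, and the labels do not give their clonal make-up. Reduced representation bisulfite sequencing (RRBS) was performed with 1 library per karyotype, so differences between karyotypes carry no replicate error and were not put to a test. RRBS reads the CpG-containing ends of restriction fragments after bisulfite treatment, and the methylation level (% mCpG) of a cytosine is the percentage of its reads that were still cytosine. The table listed 1782730 cytosines, 1756096 of them autosomal, each with 1 value for XX and 1 for XO, and the strands of a CpG were separate entries. Read depth is unknown because no counts were used, and a cytosine listed at 0% or 100% may rest on few reads. The average autosomal cytosine stood at 17.6% in XX and at 25.7% in XO.

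Methylation of CpGs is copied onto the new DNA strand after replication by the maintenance methyltransferase Dnmt1 with its partner Uhrf1, while Dnmt3a and Dnmt3b set it anew. In naive mESCs these activities are restrained, and in female cells with a pair of active X chromosomes the genome is known to become still less methylated than in XO or XY cells. Methylation that persists in naive cells is known above all from retrotransposons, young repeats and imprinting control regions, which recruit dedicated silencing machinery.

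The windows whose XX methylation was high on each DNA strand show what kind of sequence was read. The stretches printed here, on the forward strand of GRCm38, each hold the most densely listed cytosines of 1 of these windows. Capitals mark the listed positions, a C for a cytosine of the forward strand and a G for one opposite it on the reverse strand.
chr6:38284473-38284663: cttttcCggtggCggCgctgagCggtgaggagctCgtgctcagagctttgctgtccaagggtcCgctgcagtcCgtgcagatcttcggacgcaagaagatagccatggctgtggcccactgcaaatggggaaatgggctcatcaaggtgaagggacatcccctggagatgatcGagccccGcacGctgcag
chr15:89951432-89951514: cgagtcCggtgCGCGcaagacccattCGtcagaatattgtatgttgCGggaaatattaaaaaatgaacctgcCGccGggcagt
chr13:3391385-3391577: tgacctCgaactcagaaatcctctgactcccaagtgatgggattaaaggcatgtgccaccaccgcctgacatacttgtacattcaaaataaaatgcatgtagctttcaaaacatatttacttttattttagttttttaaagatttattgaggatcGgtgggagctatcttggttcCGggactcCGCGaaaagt
chr2:138569614-138569664: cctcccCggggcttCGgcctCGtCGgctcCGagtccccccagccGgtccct
chr10:60716057-60716232: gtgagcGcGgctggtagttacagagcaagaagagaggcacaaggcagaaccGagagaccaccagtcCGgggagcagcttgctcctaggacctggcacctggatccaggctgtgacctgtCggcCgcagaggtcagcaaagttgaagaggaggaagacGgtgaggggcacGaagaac

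The window on chromosome 6 that holds the first stretch had the highest value of the lower strand mean in XX among kept windows with 5 or more cytosines and both thresholds passed on each strand. Its 13 cytosines averaged 83.5% ± 15.8 (SD over cytosines) in XX and 91.9% ± 9.5 in XO. The strand means in XX were 77.3% over 6 cytosines of the reverse strand and 88.8% over 7 of the forward strand. In this window 8 cytosines lay in an exon of Gm7504, a processed pseudogene, and 5 were outside genes, while the window also touched Zc3hav1l, a gene of the zinc finger antiviral protein family. The chromosome 15 window was intergenic, and its 12 cytosines fell within the printed stretch of 83 bases. They averaged 81.5% ± 13.6 in XX and 89.6% ± 9.3 in XO, with 73.6% on the reverse and 89.5% on the forward strand in XX. The chromosome 13 window was also intergenic, with 72.3% ± 20.3 in XX and 88.8% ± 8.0 in XO over 19 cytosines, 13 of them in soft-masked repeats.

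Both remaining stretches lay inside genes. The Btbd3 window, on chromosome 2, had all of its 10 cytosines in an intron of this gene for a BTB-domain protein, within 51 bases and 9 of them in a soft-masked repeat. It averaged 75.5% ± 13.6 in XX and 77.2% ± 12.4 in XO, and the strands stood at 78.6% and 72.5% in XX. The Slc29a3 window, on chromosome 10, had all of its 13 cytosines in exon sequence of this nucleoside transporter gene and none in a repeat. It averaged 74.9% ± 23.1 in XX and 78.4% ± 13.9 in XO. In both of these windows XX and XO differed by less than the spread over their own cytosines.

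The other 5 of the 10 windows with the highest lower strand mean by this rule were all intergenic. An intergenic window 127.7 kb from the transcription start of Gja1, the gene of the gap junction protein connexin 43, had 76.1% in XX and 74.0% in XO. One on chromosome 19, 13.8 kb from the start of R3hcc1l, had 74.0% and 72.6%. The windows nearest to Pcdh10, a protocadherin gene, and to Mup8, a major urinary protein gene, had 76.3% and 76.0% in XX against 86.9% and 85.7% in XO. Their distances from these starts were 273.4 kb and 42.4 kb. The chromosome 1 window nearest to Slco4c1, an organic anion transporter gene, lay 127.2 kb from its start. This window had 74.9% in XX and 88.9% in XO. Each strand of each of these 10 windows had an XX mean of 71.8% or more, which follows from their choice by the lower strand mean.

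Over all kept windows the XX mean lay between 50.01% and 94.2%, with a median of 56.4%, and the XO median was 76.1%. As the thresholds used these values, they are given as a description. The median difference, XX minus XO, was -17.7 points, and it ran from -39.6 to 16.6 points. In the windows not kept the median difference was -27.3 points. XX was lower than XO in 1473 of the 1498 kept windows and as high or higher in 25, and 224 windows (14.95%) had XX within 10 points of XO. The median ratio of XX to XO was 0.766 in kept windows and 0.594 in windows not kept. The plot of XX against XO shows 1 continuous cloud, which the threshold at 50% divides.

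**Figure D1:**
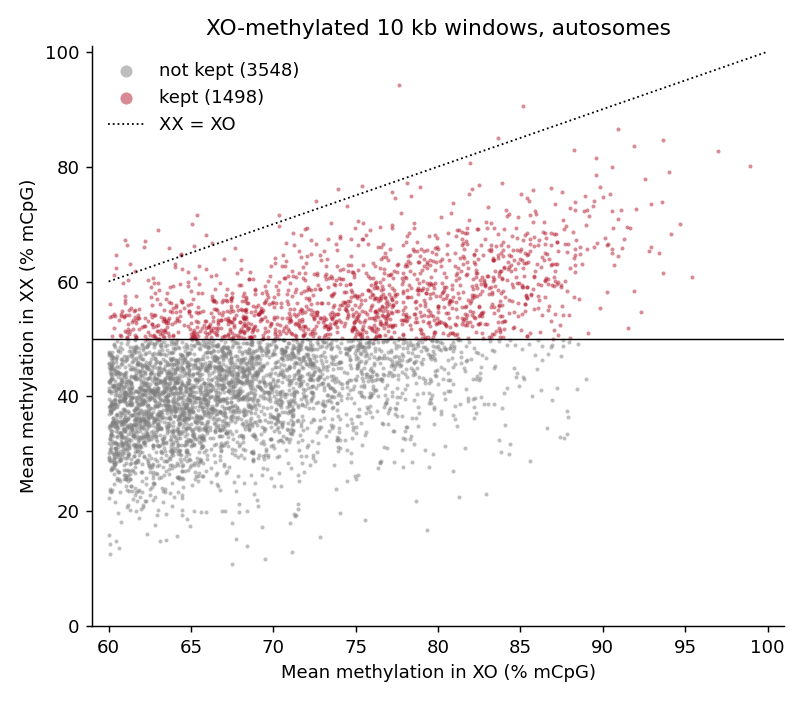
Mean methylation (% mCpG) of each of the 5046 XO-methylated autosomal 10 kb windows in XO (horizontal axis) and in XX (vertical axis), 1 point per window, with 1498 kept windows in red and 3548 not kept in grey. The horizontal line is the XX threshold of 50%, the dotted line marks equal values, and all but 25 kept windows lie below the dotted line.

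The windows at the threshold did not stand apart. The 3 just inside had XX means of 50.01%, 50.02% and 50.02%. One of them lay over Cyp11a1 and Ccdc33 on chromosome 9. The chromosome 4 window was 8.1 kb from the transcription start of Igfbpl1 and the chromosome 6 window 218.7 kb from that of Gprin3. The 3 just outside had 49.98%, 49.97% and 49.97%, and lay over Platr5 on chromosome 1, over the pseudogene Rpl19-ps10 on chromosome 7 and over Esrrg on chromosome 1.

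Kept windows were mixtures of cytosines. They held 21460 listed cytosines, 10737 on the forward and 10722 on the reverse strand, and 1 position that was not a CpG. Of these, 66.0% had 50% or more in XX, 17.96% had 80% or more and 4.32% were under 20%. In the windows not kept the same shares were 31.0%, 4.33% and 17.9%. XX was higher than XO at 18.1% of the cytosines in kept windows, equal at 1.87% and lower at the rest. The median SD over the cytosines of a kept window was 20.4 points in XX and 16.4 points in XO, and 42 windows had every cytosine at 50% or more in XX. The cytosines were clustered, as RRBS reads fragment ends. A kept window had a median of 2 clusters separated by more than 300 bp, and 359 windows had a single cluster.

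The kept windows with most listed cytosines give the finest view. On chromosome 8 a window over Tubb3, a neuronal beta-tubulin gene, and the neighbouring gene Def8 had 74 cytosines. Gm20388, also annotated as protein-coding, overlapped this window too. The window averaged 61.8% ± 20.4 in XX and 81.4% ± 19.5 in XO. Of the cytosines in the window 70 were in introns of protein-coding genes, without assignment to a particular gene. None had an exact copy of its surrounding 30 bases elsewhere in the genome. The next window, which covers more of Def8, was kept as well, with 50.7% in XX and 71.8% in XO over 25 cytosines. An intergenic window on chromosome 12 had 70.8% ± 19.9 in XX and 87.6% ± 13.4 in XO over 58 cytosines. Intergenic windows on chromosomes 9 and 7 had 65.5% and 59.5% in XX over 56 and 53 cytosines, against 84.8% and 77.0% in XO. The window on chromosome 2 over Gm10800 and Gm10801 had 71.2% ± 17.9 in XX and 80.2% ± 16.01 in XO over 52 cytosines. In that window 39 cytosines had at least 1 other exact copy of their 30 bases, up to 79 copies, so that reads there may come from more than 1 copy. Copies were counted on the 21 reference chromosomes only, and any that the reference lacks are not included.

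**Figure D2:**
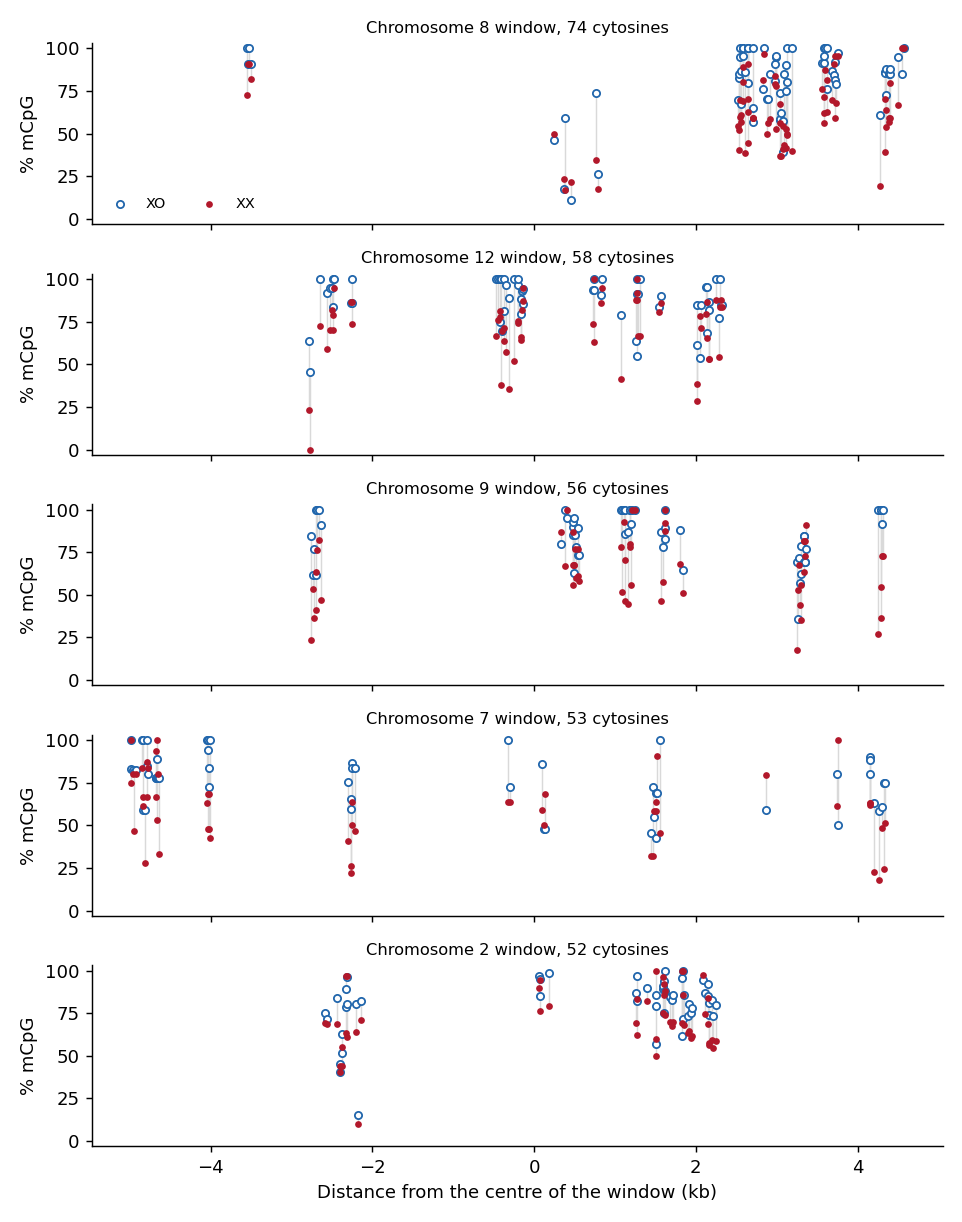
Methylation (% mCpG, vertical axis) of each listed cytosine in XX (red) and XO (open blue) in the 5 kept windows with most cytosines, against the distance from the centre of the window in kb. A grey line joins the values of 1 cytosine, and XX values in each window range from 17.6% or less up to 100%, and most lie below their XO value.

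The stretch of the Tubb3 and Def8 window with most listed cytosines is shown first, as an example of single-copy sequence inside genes. The second stretch, from an intron of Prrx1, a homeobox gene of mesenchyme, comes from the window with the largest excess of XX over XO.
chr8:123427520-123427716: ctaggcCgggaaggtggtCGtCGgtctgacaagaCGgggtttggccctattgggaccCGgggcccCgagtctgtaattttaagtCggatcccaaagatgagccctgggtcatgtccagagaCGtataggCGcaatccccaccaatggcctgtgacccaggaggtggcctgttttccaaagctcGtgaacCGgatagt
chr1:163308867-163308932: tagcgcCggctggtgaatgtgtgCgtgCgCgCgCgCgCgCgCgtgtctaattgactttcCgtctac

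The chromosome 8 stretch held 18 cytosines, which averaged 62.1% in XX and 87.3% in XO. The Prrx1 window consisted of this 1 stretch, a run of alternating C and G read on the forward strand only. Its 11 cytosines ranged from 85.7% to 96.4% in XX and from 45.5% to 90.9% in XO, and the window means were 94.2% and 77.6%, 16.6 points apart. Each cytosine but the first was higher in XX. Of these 11 cytosines 9 lay in a soft-masked repeat, and none of their 30-base surroundings had another exact copy. The cytosines lay within the 66 bases printed and could be covered by the same reads, so they are not separate measurements. The next largest excesses of XX were in introns of Atxn7l1, with 71.6% in XX and 65.4% in XO, in Cdk6, a cyclin-dependent kinase gene, with 67.1% and 61.0%, near Scn10a, a sodium channel gene, with 69.0% and 63.0%, and over Gm42503 with 90.5% and 85.1%. In the latter 4 windows the SD over cytosines was between 14.6 and 29.9 points, larger than each difference.

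The values that chose a window cannot show whether its methylation was kept, so windows were chosen anew on some of their cytosines and read on the others. Listed cytosines were ordered by position and cut in the middle, with 5 or more required on each side of the cut. Of the windows with an XO mean of 60% or more on the cytosines of lower coordinate, 2075 had an XX mean of 50% or more there. On the cytosines of higher coordinate, these windows averaged 43.2% ± 17.3 (SD over windows) in XX and 63.0% in XO. The 3897 windows not kept on the cytosines of lower coordinate averaged 35.8% ± 15.01 in XX and 57.7% in XO on those of higher coordinate. On the cytosines of choice, the windows chosen as kept had stood at 60.3% in XX and 76.0% in XO. Much of the excess therefore belonged to the cytosines of choice, and a smaller excess was found on the cytosines not used. Both thresholds were passed again by 675 of the 2075 windows (32.5%, exact binomial 95% interval 30.5 to 34.6), and by 15.6% of those not kept. When cytosines in soft-masked repeats were left out, 19.9% of the windows chosen as kept passed again. The share for windows not kept is not given for that setting, so the part played by repeats cannot be read from it. With the sides exchanged, 675 of 2153 windows (31.4%) passed again, against 15.6%. These intervals cover the counting of windows only.

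The same was done with the strands. Of the windows with 5 or more cytosines on each strand and XO at 60% or more on the reverse strand, 1090 were kept on that strand. On the forward strand they averaged 48.5% ± 14.2 in XX and 69.8% in XO, whereas the 2744 windows not kept averaged 38.3% ± 11.8 and 60.8%. Both thresholds were passed on the forward strand by 497 of the 1090 windows (45.6%, interval 42.6 to 48.6), against 13.6% of those not kept. With the strands exchanged, 44.3% passed, against 13.3%. The strands list some CpGs in common and come from the same libraries, so that this check is less independent than the cut by position. At the 3032 CpGs of kept windows that were listed on each strand, the strands differed by a median of 13.2 points in XX and 12.2 points in XO, irrespective of sign.

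Windows with higher XO on the cytosines of choice were mostly higher on the cytosines read too, in XX as in XO. Among windows with XO from 60% to 65% on the cytosines of lower coordinate, those kept there averaged 34.5% in XX on the other cytosines and those not kept 33.5%. At XO from 80% to 85% the 2 values were 49.4% over 362 windows and 42.4% over 197 windows, with XO at 70.5% and 68.8% on the cytosines read. On the strands, the same class gave 53.4% over 205 windows and 44.8% over 119, with XO at 76.1% and 70.5%. The plot of these classes shows XX higher in the windows chosen as kept in each class of XO, most clearly at high XO.

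**Figure D3:**
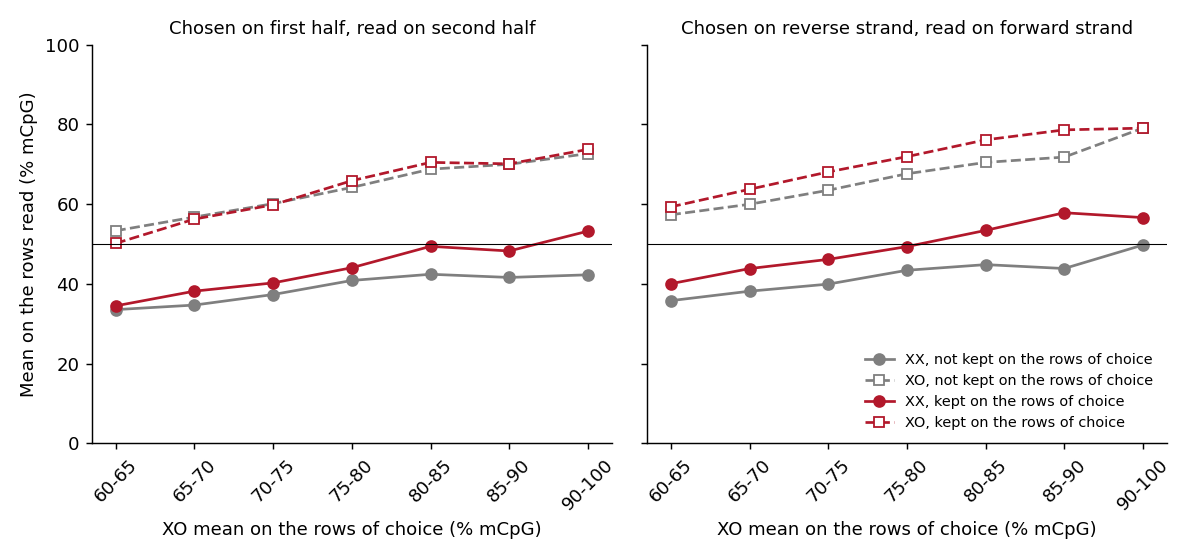
Mean XX (filled) and XO (open) methylation (% mCpG) on cytosines that did not choose the windows, for windows kept (red) and not kept (grey) on the cytosines of choice, by class of XO on the cytosines of choice. Left, chosen on the cytosines of lower coordinate and read on the others; right, chosen on the reverse strand and read on the forward strand. In both panels the red XX points lie above the grey ones in every class, and below the XO points. The horizontal line is 50%.

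The next counts describe the kept windows on the same cytosines that chose them, and are not a check on unused values. Of the kept windows, 675 of 1498 (45.1%) passed both thresholds on each side of the cut. Of the 908 with 5 or more cytosines on each strand, 497 (54.7%) passed them on each strand. Of these 908 windows, 351 (38.7%) passed on each side and on each strand. The 351 windows had a median of 62.4% in XX and 80.9% in XO. They had 52.1% of their listed cytosines in soft-masked repeats and 67.0% outside genes. These windows were selected for still higher values, and both of these shares were larger at higher XO.

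The share of windows kept was larger at higher XO methylation. It was 9.6% at XO from 60% to 65%, 33.5% from 70% to 75%, 73.8% from 80% to 85% and 83.6% from 85% to 90%, and all 39 windows at 90% or more were kept. In 10-point classes the shares were 13.7%, 41.6%, 77.0% and 100%. A higher XO level brings a window nearer to the XX threshold at any fixed ratio, so this order is partly built into the rule.

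Repeats were more frequent in kept windows. The lower-case (soft-masked) bases of the reference mark interspersed and simple repeats, and no class or family of repeat was assigned. The median kept window was 41.3% soft-masked, against 25.6% for windows not kept. Of the listed cytosines in kept windows 42.0% lay in soft-masked repeats, against 25.7% in windows not kept and 5.31% in windows with XO under 60%. The surrounding 30 bases had another exact copy in the genome at 26.2% of cytosines in kept windows and at 14.9% in windows not kept, and 100 or more copies at 6.37% and 3.59%. At least 1 listed cytosine in a soft-masked repeat was found in 1131 kept windows (75.5%), against 60.4% of the windows not kept. The other 367 kept windows had none.

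Repeat content was higher at higher XO levels in both sets. Within 10-point classes of XO, the share of listed cytosines in repeats differed little between the sets or turned round. The soft-masked share of the whole window did so less evenly. Its median at XO from 70% to 80% was 43.7% in kept windows and 33.9% in windows not kept. From 60% to 70% it was 25.3% and 23.7%, and from 80% to 90% it was 56.6% and 58.9%. Of the listed cytosines at XO from 60% to 70%, 20.3% in kept windows and 18.4% in windows not kept were in soft-masked repeats. At XO from 70% to 80% these shares of cytosines were 42.1% and 42.1%. From 80% to 90% they were 57.5% and 71.4%, with the kept windows now the lower. The share with another exact copy was 37.3% in kept windows and 44.8% in windows not kept at XO from 80% to 90%. Inside kept windows, cytosines outside repeats with no other exact copy averaged 57.2% in XX and 73.6% in XO over 11674 positions, and cytosines in soft-masked repeats with no other copy averaged 59.04% and 78.2% over 4165. In soft-masked repeats with further copies, the XX means of the classes by number of copies ran from 57.8% to 60.4%.

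**Figure D4:**
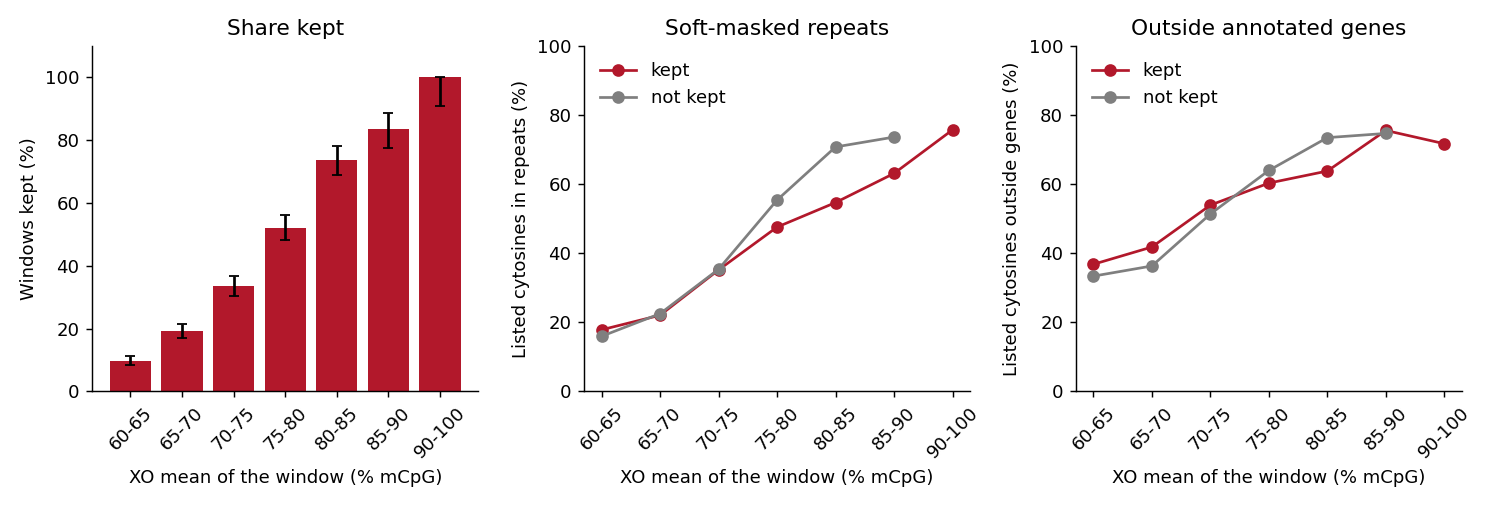
Left, percentage of XO-methylated windows that were kept, by class of XO methylation, with exact 95% binomial intervals that cover the counting of windows only. Middle and right, percentage of listed cytosines in soft-masked repeats and outside annotated genes, for kept (red) and not kept (grey) windows of the same class. The share kept is 9.6% in the lowest and 100% in the highest class, while the lines for kept and not kept windows run close together up to an XO level of 75% and the grey line is higher for repeats from 75% to 90%.

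Repeat-derived stretches of kept windows are shown because their sequences recur. The first lies in a window of a stretch of 3 adjacent kept windows on chromosome 7, the second in the window nearest to Slco4c1 and the third in the window over Gm10801 and Gm10800.
chr7:7014435-7014498: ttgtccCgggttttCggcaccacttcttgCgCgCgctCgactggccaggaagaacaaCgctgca
chr1:96749291-96749440: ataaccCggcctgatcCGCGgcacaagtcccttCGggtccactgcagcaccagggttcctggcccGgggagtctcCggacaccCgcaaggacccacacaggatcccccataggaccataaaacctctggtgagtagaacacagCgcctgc
chr2:98666497-98666688: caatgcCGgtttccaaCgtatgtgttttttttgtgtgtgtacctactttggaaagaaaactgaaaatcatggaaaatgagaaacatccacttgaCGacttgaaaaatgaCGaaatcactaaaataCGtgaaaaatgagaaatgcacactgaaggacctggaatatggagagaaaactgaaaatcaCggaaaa

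All 7 cytosines of the chromosome 7 stretch were in a soft-masked repeat and had further exact copies, up to 157. They averaged 85.7% in XX and 83.1% in XO. The chromosome 1 stretch had 11 cytosines with 72.7% in XX and 90.2% in XO, and the Gm10801 stretch had 10 with 79.1% and 84.3%.

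Across kept windows, 4490 different 30-base sequences around listed cytosines had more than 1 exact copy in the genome, and 3867 of these were seen in only 1 kept window. Sequences seen in 5 or more kept windows numbered 48. Those printed here, with every CpG in capitals, are the one seen in most kept windows (A), 3 that share most of their bases at shifted positions (B to D), and 2 with high XX values (E and F).
recurring A: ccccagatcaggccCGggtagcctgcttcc
recurring B: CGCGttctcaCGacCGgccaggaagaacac
recurring C: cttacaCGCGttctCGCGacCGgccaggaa
recurring D: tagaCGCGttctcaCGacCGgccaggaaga
recurring E: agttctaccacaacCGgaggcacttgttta
recurring F: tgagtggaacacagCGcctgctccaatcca

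Sequence A had 4812 copies and was listed in 18 kept windows, with 54.8% in XX and 76.9% in XO over 21 cytosines. In windows not kept its 17 cytosines had 46.8% and 70.2%. Sequence B was listed once in each of 11 kept windows, with 72.1% in XX and 85.4% in XO, and its 5 cytosines in windows not kept had 53.6% and 85.6%. For C the values were 64.5% and 87.0% in kept windows against 40.9% and 79.3%, and for D they were 70.1% and 87.1% against 44.1% and 69.95%. The same 30 bases thus stood at different XX levels in kept and other windows, as the choice of windows on XX requires in part. E and F, each listed in 8 kept windows and in no window not kept, had 79.2% and 75.6% in XX and 84.3% and 79.4% in XO.

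The median number of CpGs in the 10 kb of reference sequence was 117 in both sets over all XO levels. At XO from 60% to 70% it was 120 in both, from 70% to 80% it was 115 in kept windows and 109 in windows not kept, and from 80% to 90% it was 116 and 105. The median GC content was 44.0% in kept windows and 45.1% in windows not kept. Windows with XO under 60% had a median of 148 CpGs. The share kept was 31.4% in XO-methylated windows with under 80 CpGs, 25.6% with at least 100 but under 150, and 52.0% in the 171 windows with 200 or more (interval 44.3 to 59.7). The windows with 200 or more CpGs had a median XO of 74.5%, against 67.1% for those with at least 100 but under 150. At XO from 70% to 80%, 34 of 58 windows with 200 or more CpGs were kept (58.6%) and 40.9% of those with fewer. At XO from 80% to 90% the counts were 40 of 41 and 394 of 523. At XO from 60% to 70% the shares were 13.6% and 13.7%. Of the cytosines in the 89 kept windows with 200 or more CpGs, 42.3% were in soft-masked repeats and 61.1% lay outside genes.

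Kept windows lay outside genes more often than windows not kept. Of their listed cytosines 56.4% were outside annotated genes, 25.3% in introns and 10.5% in exons of protein-coding genes, and 3.64% lay within 1 kb of a transcription start. In windows not kept these shares were 40.7%, 35.5%, 17.3% and 6.53%. No gene overlapped 669 kept windows (44.7%), against 33.7% of the windows not kept. Within classes of XO the difference was smaller or turned round. At XO from 60% to 70%, 39.7% of the cytosines in kept windows and 34.5% in windows not kept were outside genes. At XO from 70% to 80%, the values were 57.5% and 55.6%, and at XO from 80% to 90% they were 67.8% and 73.7%. XX levels in kept windows were 58.6% outside genes, 57.3% in introns and 56.2% in exons of protein-coding genes.

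Windows next to the kept ones were read as well. Since kept windows were chosen for high values, their neighbours had to be lower on average, and only the comparison with the neighbours of windows not kept is informative. Adjacent windows with at least 3 but under 10 listed cytosines were outside the reach of the rule. Next to kept windows, 729 of these averaged 39.6% ± 18.6 (SD over windows) in XX and 59.2% ± 19.9 in XO. Next to windows not kept, 1880 averaged 36.4% ± 17.2 and 55.5% ± 18.6. The ratio of the means was 0.668 and 0.655. The differences between the sets were smaller than the SD over windows, which describes single windows and not the error of a mean. Whether the sets differ was not tested. With adjacent windows of 10 or more cytosines included, some of which were themselves kept, the averages were 34.2% and 51.3% over 1400 windows next to kept ones, and 31.5% and 48.3% over 3728 next to the others. At 20 kb and beyond, XX was between 28.6% and 32.1% around kept windows. Where a window adjacent to a kept one was itself XO-methylated, it was kept in 74 of 172 cases (43.0%, interval 35.5 to 50.8), against 98 of 354 (27.7%, 23.1 to 32.7) next to windows not kept. Pairs of adjacent windows are counted from each side here, and a pair of a kept window and one not kept enters both shares. The cases are therefore not independent, and the intervals are too narrow. The sets were also not matched for XO level, with which the share kept rose.

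**Figure D5:**
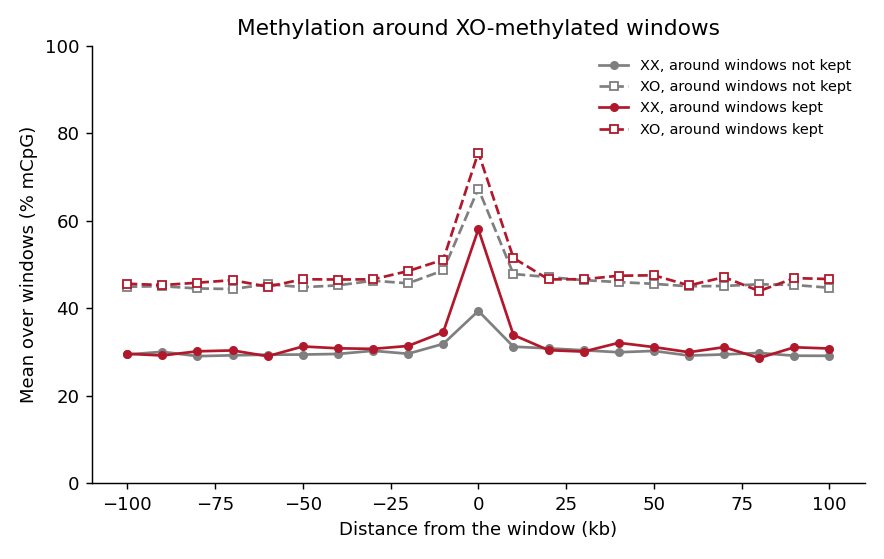
Mean methylation (% mCpG) in XX (filled) and XO (open) of windows with 3 or more listed cytosines, at distances from -100 to 100 kb around kept (red) and not kept (grey) windows. At 0 kb are the windows themselves, chosen by these values, and from 20 kb outward XX lies between 28.6% and 32.1% around kept windows, near the values around windows not kept.

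Most kept windows had no kept window next to them, with 1426 single windows, 33 pairs and 2 stretches of 3. Few adjacent windows could be kept at all. Of 1400 windows next to kept ones with 3 or more listed cytosines, 671 had 10 or more, and 172 were XO-methylated. The single windows are therefore not read as a trait of kept windows. The stretch on chromosome 1, from 85860000 to 85889999, lay near Itm2c, an integral membrane protein gene, and its windows had 59.3%, 62.4% and 58.8% in XX and 82.1%, 85.2% and 76.3% in XO. The stretch on chromosome 7, from 7010000 to 7039999, lay near Aurkc, a kinase of meiosis, with 84.96%, 65.1% and 59.4% in XX and 83.6%, 79.6% and 74.4% in XO. None of these 6 windows overlapped a gene. Kept windows were found in 1027 of the 1878 megabases with an XO-methylated window. At most 6 fell in 1 megabase, which was reached from 11 to 12 Mb and from 26 to 27 Mb on chromosome 7 and from 3 to 4 Mb on chromosome 13. These megabases held 7, 6 and 7 XO-methylated windows, in this order. By chromosome the share of XO-methylated windows kept ran from 23.2% on chromosome 19 (26 of 112, interval 15.8 to 32.1) to 33.2% on chromosome 13 (89 of 268, 27.6 to 39.2), and these intervals overlap.

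Of the 3205 genes over an XO-methylated window, 1008 (31.5%) overlapped a kept window, and 639 of the 1008 were protein-coding. Gene lists were read against this share. Among imprinted genes 1 of 4 overlapped a kept window. Overlap with any part of a gene counted, and imprinting control regions were not located. A region methylated on 1 allele only would lie near 50%, below the XO threshold, so these values do not describe the keeping of imprints. Trappc9, a trafficking gene that hosts the imprinted Peg13, had 57.5% in XX and 75.1% in XO in the kept window and 48.2% and 37.6% in XX in its other XO-methylated windows. A window over Igf2r, the receptor that clears insulin-like growth factor 2, had 49.9% in XX, just under the threshold, against 87.6% in XO over 11 cytosines. The windows over Kcnq1, a potassium channel gene, had 26.3% and 44.8% in XX, and that over Inpp5f had 37.2%. None of the 4 germline genes overlapped a kept window. Brdt, Stag3, Asz1 and Tex101, all of which act in germ cells, had from 38.0% to 44.7% in XX and from 61.8% to 67.1% in XO. The same held for the 3 genes of the methylation machinery, where Dnmt1 had 41.1%, Tet1 48.9% and Tet3 41.6% in XX. Hox genes overlapped no XO-methylated window.

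Zinc finger genes of the Zfp series, whose products include repressors of retrotransposons, overlapped kept windows in 11 of 34 cases (32.4%). Zfp317 had 69.3% in XX and 81.7% in XO over 10 cytosines, all in soft-masked repeats. Zfp11 had 51.9% and 83.7% over 45 cytosines, none of them in a repeat. The window of Zfp943 had 69.5% and 76.4%, but none of its listed cytosines lay inside the gene. Among chemosensory receptor genes, 4 of 18 olfactory and 9 of 17 vomeronasal or trace amine genes overlapped a kept window. Vmn1r195 and Vmn1r196 shared 1 of these windows. Of the 9, which include Vmn2r20 with 68.4% in XX and 86.9% in XO, 3 had a listed cytosine inside the gene. Of the antigen receptor segments, 5 of 9 overlapped a kept window, and 1 of the 5 had a listed cytosine inside the segment. The window over Trav4-4-dv10 had 75.2% in XX and 81.9% in XO, with 0 listed cytosines inside the segment. The 7 of 7 clustered protocadherin genes, Pcdha1 to Pcdha7, shared 1 kept window of 10 cytosines with 55.1% in XX and 86.7% in XO, and thus count as 1 region.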

How the data were processed

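DNA methylation was measured by RRBS in 1 XX and 1 XO library of Xmas mESCs. The authors deposited, for each CpG cytosine and strand, the percent of reads methylated in each library. The submitters' processing notes name bcl2fastq, Bismark and mm10, and their versions and any coverage minimum are not given in the sources used here. All columns of sample values were matched to a sample (0 unmatched), 0 positions were listed more than once, and 0 values were missing. Positions were placed on GRCm38.p6 (RefSeq), which gave strand, soft-masked bases, CpG counts, sequence, and exact copies of the 30 bases around each cytosine on both strands of 21 chromosomes. Genes were those of GENCODE M21. Window means were unweighted over listed cytosines. Read depth is unknown, so precision per cytosine cannot be given.

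As there was 1 library per karyotype, no test was run. Shares have exact Clopper-Pearson intervals at 95%. The code was tested on simulated windows with and without a property shared by their parts. The windows, lists, alternatives and the choice of finer XO classes were made with earlier results of these data known. The windows named are the 10 kept windows with the highest lower strand mean in XX (5 or more cytosines and both thresholds passed on each strand), the 5 with most cytosines, up to 3 of the longest stretches of adjacent kept windows, the 3 nearest to the XX threshold on each side, and the 5 with the largest XX minus XO. Genes named overlap such windows or belong to the lists, and the nearest protein-coding gene by transcription start is given otherwise. The recurring sequences printed were chosen after their values were seen. The 11 alternatives changed the minimum of cytosines, the thresholds, the window grid, the summary, or the cytosines counted. Software versions were pandas 2.3.3, scipy 1.17.1, numpy 2.4.6, matplotlib 3.10.9 and numba 0.67.0 under Python 3.11.15.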

Additional observations from a re-analysis of the deposited data

Results flagged for a closer look

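Chromosome X was not used in the comparisons above, and windows on it passed the same thresholds. Of 625 X-linked windows with 10 or more listed cytosines, 99 had an XO mean of 60% or more, and 30 of these had an XX mean of 50% or more (30.3%, exact binomial 95% interval 21.5 to 40.4, counting of windows only). The autosomal share was 29.7% of 5046 windows, which lies inside this interval, so the X-linked share is not read as a trait of chromosome X. The 30 windows had XX means from 50.2% to 70.5% and XO means from 69.4% to 87.9%. XX cells carry 2 X chromosomes and XO cells 1, and whether the chromosomes of XX cells differ from each other cannot be told apart in these values.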

How the results depend on the processing

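No paired analysis was possible because each karyotype had 1 library, and for the same reason no library could be left out. None of the alternatives turned the sign of the median difference between XX and XO. The main values were 1498 kept windows, 29.7% of XO-methylated windows kept, 32.5% of windows chosen on the cytosines of lower coordinate passing again, 42.0% of cytosines in soft-masked repeats, and a median difference of -17.7 points. A share or median counts as moved when it leaves its 95% interval, and a count when it changes by more than 1.5 times. With a minimum of 5 cytosines there were 5362 kept windows, 35.3% kept, 38.6% in repeats and -16.5 points. With a minimum of 20 the values were 188, 24.2%, 43.2% and -20.3 points. An XX threshold of 40% gave 3329 windows, 66.0% kept, 41.8% passing again, 33.4% in repeats and -21.1 points, and one of 60% gave 479, 9.49%, 23.9%, 50.1% and -15.2 points. An XO threshold of 70% gave 52.2% kept, 49.5% in repeats and -20.3 points. Shifting the grid by 5 kb gave 40.9% in repeats. Counting each CpG once gave 31.6% kept, 29.8% passing again and 37.9% in repeats. Medians over cytosines gave 40.02% in repeats and -18.7 points. Without cytosines in soft-masked repeats there were 678 kept windows, 22.7% kept, 19.9% passing again and -15.9 points. Without cytosines whose 30 bases had another exact copy there were 906, 25.1%, 24.5%, 17.6% in repeats and -16.2 points. Fewer cytosines per window and the removal of repeats change which windows are eligible by construction, and the cause of the other shifts was not tested.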

Other observations

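Over all 1756096 autosomal cytosines, whether in kept windows or not, the mean of XX was a smaller part of the mean of XO in repeats than outside them. The ratio of the means was 0.694 at the 1567952 cytosines outside soft-masked bases whose 30 bases had no other exact copy, where XX averaged 16.1% and XO 23.3%. In soft-masked repeats it was 0.656 at 107537 such cytosines, 0.625 at 22273 cytosines whose 30 bases had 2 to 9 copies, and 0.635 at 9514 cytosines with 1000 or more copies, where XX averaged 33.99% and XO 53.6%. The XO means of these classes differ, and the ratio was not compared at matched XO levels here.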
